A study of Mus musculus with 14 samples.

Results

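The 10 genes described here encode proteins that sit on or act at the surface of the lipid droplet: the CIDE proteins Cidea and Cidec, the perilipins Plin2, Plin3, Plin4 and Plin5, the lipases Pnpla2 and Pnpla3, and the lipase inhibitors G0s2 and Hilpda. They are 10 of 22180 genes measured. The genes were taken by symbol, and for each the probe set was chosen by its mean over all 14 arrays, the highest being kept, among those annotated with exactly 1 symbol. That choice mattered only for G0s2, which had 2 such probe sets, while the other 9 genes had 1. The list was drawn up with earlier results of these data in view, so its counts describe the list and are not independent evidence.

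Liver RNA was taken from 14 male mice, 1 liver per array, all of C57BL/6 background and all carrying Alb-Cre, in which the albumin promoter drives Cre recombinase in hepatocytes. LMNA +/+ mice on chow (WT, n = 2) had no floxed copy of the lamin A/C gene, LMNA flx/+ mice (HET) had 1, and LMNA flx/flx mice (KO) had 2. HET and KO mice were given standard chow (n = 3 each) or, for 14 weeks, a high-fat regimen called HFD here (n = 3 each), the Surwit diet with 42 g/L of carbohydrate (55% fructose, 45% sucrose) in the drinking water. Ages were 24.6 and 27 weeks in WT, 24 to 26.4 weeks in HET on chow, 38.9 weeks in KO on chow, 30 to 30.4 weeks in HET on HFD and 35.3 weeks in KO on HFD. KO mice were therefore older than HET mice by a mean of 13.3 weeks on chow and 5.17 weeks on HFD, and age and genotype cannot be told apart. The cross is designed to remove Lmna from hepatocytes, and the state of the gene in other liver cells was not measured.

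Hepatocytes store triglyceride in lipid droplets, whose size and lifetime are set by the proteins that coat them. Perilipins cover the surface and limit the access of lipases, and CIDE proteins at the contact of neighbouring droplets move lipid from the smaller to the larger one. Release of stored fat is begun by Pnpla2 (adipose triglyceride lipase), which G0s2 and Hilpda restrain. Cidea and Cidec are best known from fat tissue and are low in lean liver, whereas Plin2 is the abundant coat protein of hepatocyte droplets.

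Values are log2 intensities, and differences between groups are differences of mean log2 values given with the standard error from limma. A gene was called changed at a Benjamini-Hochberg adjusted p below 0.05 over all 22180 genes. The arrays had medians of 2.21 to 2.30 over all probe sets, and correlations between arrays ran from 0.989 to 0.994 within groups and from 0.980 to 0.994 between groups. Groups of 2 or 3 arrays limit the precision, and WT with its pair of arrays is the least precise. A probe set's level cannot be set against that of another probe set, so levels are compared within a gene only. In whole liver, fewer cells of a type and less RNA per cell cannot be told apart. The Lmna probe set itself was dim, with means of 4.47 in WT, 4.31 in HET and 3.85 in KO livers on chow, and of 4.15 in HET and 3.99 in KO livers on HFD. Its KO minus HET difference was -0.47 ± 0.12 on chow (adjusted p = 0.0823, limma) and -0.16 ± 0.12 on HFD (adjusted p = 0.517), where the ranges overlapped, so neither single-diet difference was called. It was called over both diets (-0.31 ± 0.09, adjusted p = 0.0386) and against WT (-0.62 ± 0.14, adjusted p = 0.0393). The sources used here do not name the floxed exon, so this probe set is a limited check of the genotype labels.

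Across genotypes, 3 of the 10 genes rose in KO livers on both diets: Cidea, Cidec and Plin2. Plin4 rose in KO livers on HFD. No member fell. On chow, KO against HET gave 3 called members where 1.92% of all genes were called, with a median difference of 0.43 over the 10 members and -0.009 over all genes. On HFD there were 4 called members where 7.56% of all genes were called, with medians of 0.52 and -0.02. Over both diets together 4 members were called, against 9.43% of all genes, with medians of 0.38 and -0.02. This last comparison reuses the arrays of the 2 single-diet comparisons and is not further evidence. Over the 14 arrays, Cidea, Cidec and Plin2 were higher in each of the 6 KO livers than in any of the 8 other livers, while the remaining 7 genes had overlapping ranges. Of all genes, 2.77% were higher in the 6 KO livers in this way. Between KO and HET livers of 1 diet, ranges were apart for 5 members on chow (18.9% of all genes) and 5 on HFD (26.2%), all higher in KO.

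**Figure D1:**
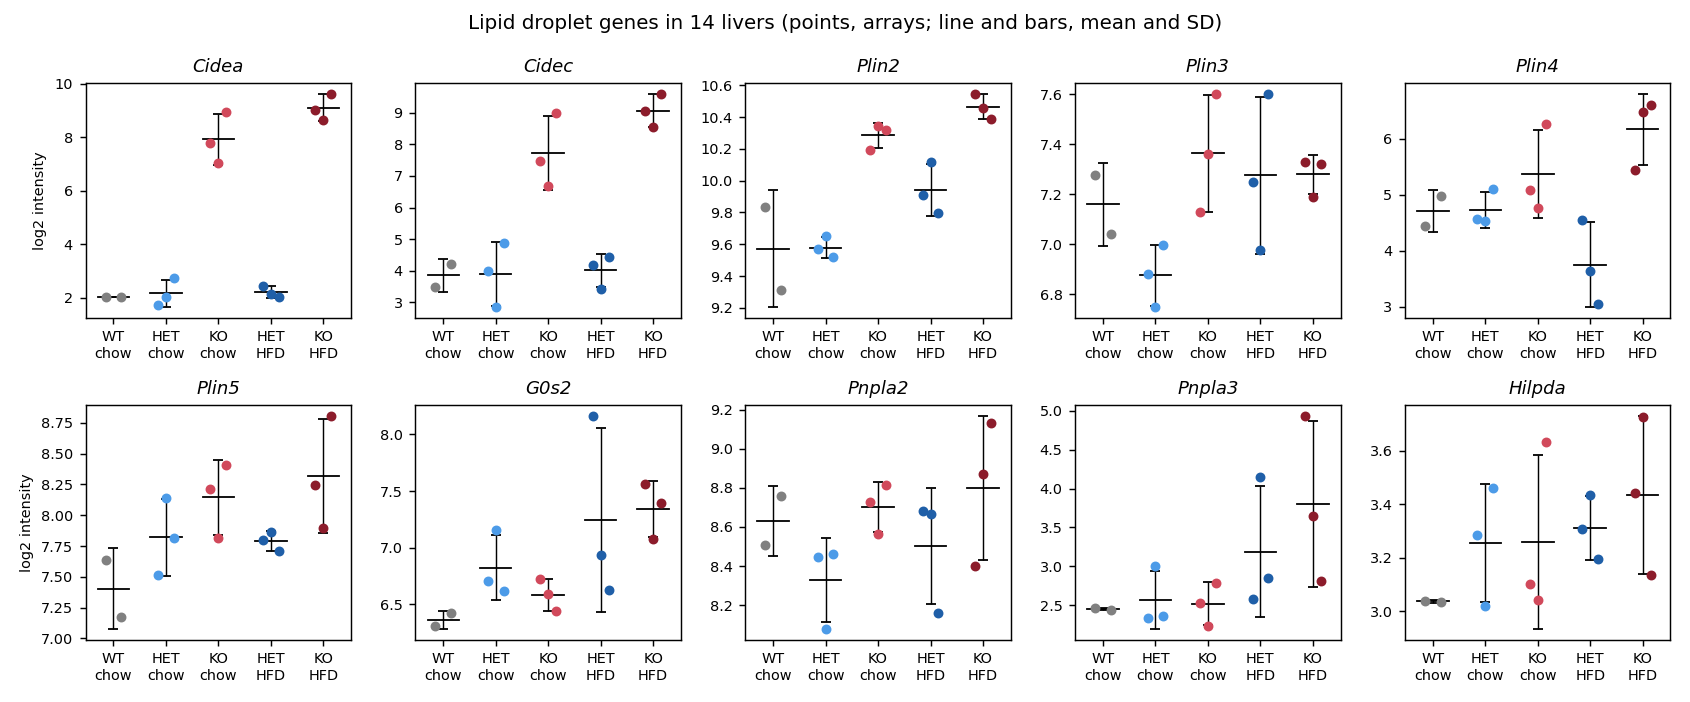
Log2 intensity of the 10 lipid droplet genes (vertical axes, each with its own range) in the 5 groups (horizontal axes). Points are single livers, lines the group means and bars the SD. Cidea, Cidec and Plin2 are the panels in which both KO groups lie wholly above the HET and WT groups.

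Cidea was the gene with the largest rise of all 22180 genes in KO against HET livers on either diet. It read 2.02 and 2.03 in the WT livers, and 1.72, 2.03 and 2.71 in the HET livers on chow. The values were 7.79, 7.03 and 8.93 in the KO livers on chow. Under HFD feeding it read 2.44, 2.13 and 2.02 in HET livers and 9.02, 8.63 and 9.63 in KO livers. All KO livers were thus far above all others, with a gap of 4.32 between the lowest KO and the highest other liver. The KO minus HET difference was 5.76 ± 0.40 on chow (54.2-fold, adjusted p = 6.53e-06, limma, n = 3 per group) and 6.90 ± 0.40 on HFD (119-fold, adjusted p = 1.26e-06). The difference from WT on chow was 5.89 ± 0.45 (adjusted p = 1.57e-05), from the same KO arrays. In 6 of the 8 WT and HET livers the Cidea signal lay below the median of all probe sets of the array, so these folds rest on a level close to background and their size is uncertain.

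Cidec, the second CIDE protein, lay above the array median in every liver. Its WT and HET values were still low, from 2.85 to 4.87, so the size of its folds is uncertain too. Cidec read 3.48 and 4.22 in WT, and 3.98, 2.85 and 4.87 in HET livers on chow. The KO livers on chow read 7.48, 6.70 and 8.99. On HFD the values were 4.19, 3.43 and 4.42 in HET and 9.06, 8.55 and 9.62 in KO livers. Here too the KO livers stood apart, by 1.83 from the highest other liver. The KO minus HET difference was 3.82 ± 0.57 on chow (14.2-fold, adjusted p = 0.00353) and 5.06 ± 0.57 on HFD (33.4-fold, adjusted p = 2.29e-04), and the difference from WT was 3.87 ± 0.64 (adjusted p = 0.0072), all from limma. With only the groups compared in the fit, the chow calls of Cidec were lost (adjusted p = 0.0534 against HET and 0.0652 against WT), and the call against WT was also lost without WT liver G1 (adjusted p = 0.0763).

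Plin2, the coat protein that covers most hepatocyte droplets, was bright everywhere and changed far less on the log2 scale. It read 9.83 and 9.31 in WT and 9.57, 9.65 and 9.52 in HET livers on chow, against 10.19, 10.34 and 10.32 in KO livers. On HFD it read 9.91, 10.12 and 9.79 in HET and 10.55, 10.46 and 10.39 in KO livers. The gap between the lowest KO liver and the highest other liver, a HET liver on HFD, was 0.07. The KO minus HET difference was 0.71 ± 0.13 on chow (1.63-fold, adjusted p = 0.0176, limma) and 0.52 ± 0.13 on HFD (1.44-fold, adjusted p = 0.0317), and the difference from WT was 0.71 ± 0.15 (adjusted p = 0.0314). With arrays centred on their medians over the genes tested, the HFD difference was 0.31 (adjusted p = 0.109) and that from WT 0.58 (adjusted p = 0.0784). With only the groups compared in the fit these p-values were 0.0551 and 0.195. The single-diet calls were lost without single livers, with adjusted p up to 0.0751 against HET on chow (without F1, F2, H2 or I1), 0.111 on HFD (without A2, B2, C2, C3 or C4) and 0.329 against WT (without N1, H2 or I1). Over both diets the difference was 0.61 ± 0.10 (adjusted p = 0.00122) and passed without any 1 array. With age as a linear term, a fit limited as described below, the Plin2 difference was -0.77 on chow and -0.05 on HFD. Neither passed (adjusted p = 0.788 and 0.975).

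Plin4, a perilipin best known from fat tissue and muscle, differed between genotypes on HFD. It read 4.55, 3.65 and 3.06 in HET livers and 5.44, 6.47 and 6.60 in KO livers on HFD, with no overlap. On chow it read 4.45 and 4.98 in WT, 4.57, 4.53 and 5.10 in HET, and 5.09, 4.77 and 6.27 in KO livers, so the chow ranges overlapped. The KO minus HET difference was 2.42 ± 0.44 on HFD (5.34-fold, adjusted p = 0.00475, limma) and 0.64 ± 0.44 on chow (adjusted p = 0.592). The difference between these differences was 1.78 ± 0.62, with an unadjusted p of 0.013 and an adjusted p of 0.373, so it did not pass the test. Both arms contributed to it: on HFD the mean was 0.98 ± 0.44 lower than on chow in HET livers (adjusted p = 0.467) and 0.80 ± 0.44 higher in KO livers (adjusted p = 0.548). HET liver B2 gave the lowest Plin4 value, and without it the HFD difference was 2.07 (adjusted p = 0.0193).

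Apart from the Plin2 differences, which changed sign, age as a linear term ended several of these calls without turning their direction. On chow the KO minus HET difference was then 8.22 for Cidea (adjusted p = 0.192, limma) and 9.95 for Cidec (adjusted p = 0.231). On HFD that of Plin4 was 3.32 (adjusted p = 0.25), while those of Cidea, 7.85 (adjusted p = 0.0056), and Cidec, 7.44 (adjusted p = 0.0249), passed. Within each KO group all ages were equal, so the age slope came only from small age differences within WT and HET groups. It was carried over the wider age gaps between genotypes, so the fit cannot say whether a call depends on age. Leaving out F1 and F2 together kept P1 as the only HET liver on chow. The chow difference was then 2.85 for Cidec and 0.77 for Plin2, and that of Plin4 over both diets was 1.35. These differences rest on a single HET liver on chow.

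Plin3 and Plin5 were not called in any comparison. Plin3, which moves from the cytosol onto new droplets, read 7.28 and 7.04 in WT livers, 6.88, 6.75 and 7.00 in HET livers on chow and 7.13, 7.36 and 7.60 in KO livers on chow. The KO and HET ranges were apart by a small margin, whereas the KO and WT ranges overlapped. The KO minus HET difference was 0.49 ± 0.16 and did not pass (adjusted p = 0.186, limma). On HFD the Plin3 values were 7.25, 6.98 and 7.60 in HET and 7.33, 7.19 and 7.32 in KO livers, with a difference of 0.00 ± 0.16 and a 95% interval from -0.35 to 0.35. Plin5, which ties droplets to mitochondria, read 7.64 and 7.17 in WT, 7.51, 8.14 and 7.81 in HET and 8.22, 7.81 and 8.41 in KO livers on chow, and 7.80, 7.87 and 7.71 in HET and 8.25, 7.89 and 8.81 in KO livers on HFD. Its KO minus HET difference was 0.32 ± 0.23 on chow (adjusted p = 0.62) and 0.52 ± 0.23 on HFD (adjusted p = 0.225), and on HFD its KO and HET ranges did not overlap. Over both diets the Plin5 difference was 0.42 ± 0.17 (adjusted p = 0.142), and from WT on chow it was 0.74 ± 0.26 (adjusted p = 0.249).

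Among the lipases and their inhibitors no gene was called in any comparison. Pnpla2 (adipose triglyceride lipase) read 8.51 and 8.76 in WT, 8.44, 8.08 and 8.46 in HET and 8.73, 8.56 and 8.82 in KO livers on chow. Under HFD feeding it read 8.68, 8.67 and 8.16 in HET and 8.40, 8.87 and 9.13 in KO livers. Its KO minus HET difference was 0.37 ± 0.20 on chow (adjusted p = 0.443, limma) and 0.30 ± 0.20 on HFD (adjusted p = 0.432), with 95% intervals of -0.05 to 0.80 and -0.12 to 0.72.

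G0s2, the inhibitor of Pnpla2, read 6.31 and 6.42 in WT, 6.70, 7.16 and 6.62 in HET and 6.72, 6.59 and 6.44 in KO livers on chow. Under HFD feeding it read 8.17, 6.93 and 6.63 in HET and 7.56, 7.08 and 7.39 in KO livers, and the high HET value came from liver A2. The KO minus HET difference was -0.24 ± 0.30 on chow (adjusted p = 0.808, limma) and 0.10 ± 0.30 on HFD (adjusted p = 0.901). The dimmer G0s2 probe set had means of 3.17 in WT, 2.81 in HET and 3.00 in KO livers on chow, and of 3.66 in HET and 3.59 in KO livers on HFD. Both probe sets had higher means on HFD than on chow in HET and in KO livers, but in HET livers the difference of the brighter one rested on A2 and was -0.04 without it.

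Pnpla3, a droplet lipase that feeding induces, and Hilpda, a lipase inhibitor that hypoxia and fatty acids induce, were dim. Pnpla3 lay between 2.24 and 3.00 in all 8 livers on chow. On HFD it read 2.57, 4.15 and 2.84 in HET and 4.94, 3.64 and 2.82 in KO livers, so single livers of both genotypes were high. Its KO minus HET difference was 0.61 ± 0.47 on HFD (adjusted p = 0.52, limma). Hilpda lay between 3.02 and 3.73 in all 14 livers, and its KO minus HET difference was 0.00 ± 0.18 on chow and 0.12 ± 0.18 on HFD (adjusted p = 0.995 and 0.772).

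**Figure D2:**
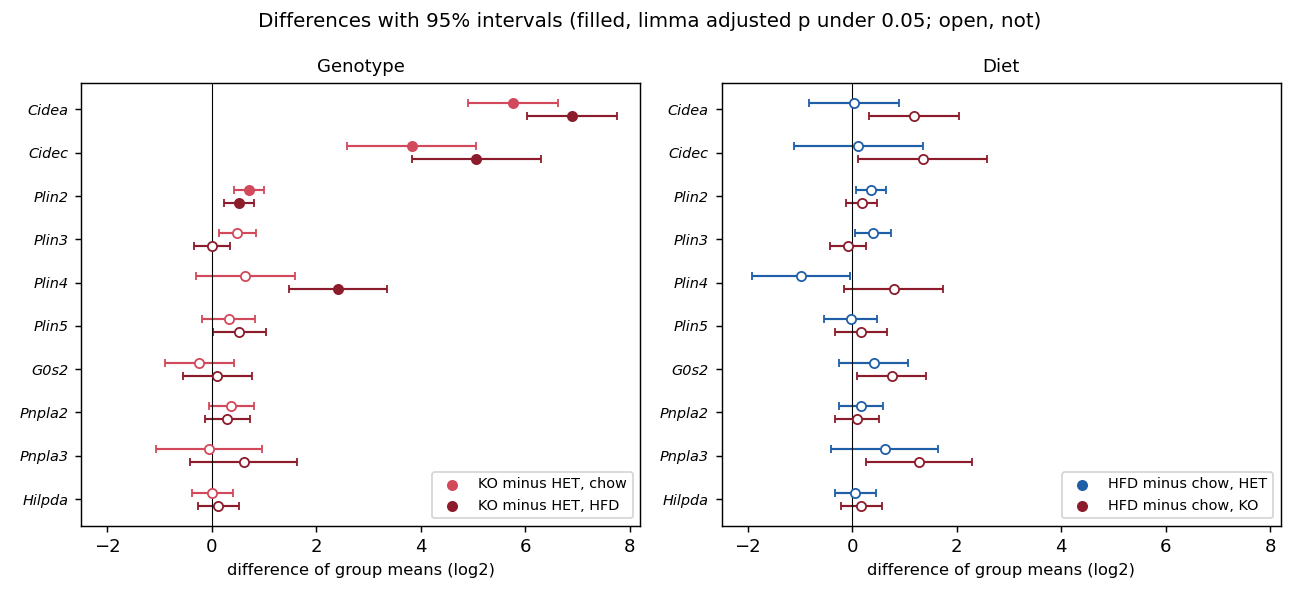
Differences of group means on the log2 scale (horizontal axes) for the 10 genes (vertical axes), with KO minus HET on each diet at left and HFD minus chow in each genotype at right. Points are differences and bars 95% intervals, and filled points passed an adjusted p of 0.05 over all genes. The filled points are Cidea, Cidec and Plin2 on both diets and Plin4 on HFD, all at left.

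On chow Cidea, Cidec and Plin2 were called against either control. KO against WT gave 3 called members where 1.65% of all genes were called. This comparison shares its KO arrays with KO against HET. HET against WT gave 0 called members and 0 members at an unadjusted p under 0.05 with limma, against 0% and 4.3% of all genes. The widest of these 10 differences was that of G0s2, 0.46 ± 0.34 (adjusted p = 0.999). With 2 WT livers the 95% intervals were wide, from -0.84 to 1.10 for Cidea and from -1.33 to 1.43 for Cidec, and they do not show that WT and HET were alike.

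The diet moved no member past the threshold in either genotype. HFD against chow gave 0 called members in HET livers, where 0.198% of all genes were called, and 0 in KO livers, where 0.316% were called. At an unadjusted p under 0.05 limma gave 3 members in HET livers (Plin2, Plin3 and Plin4) and 4 in KO livers (Cidea, Cidec, G0s2 and Pnpla3), against 10.2% and 11.1% of all genes. In HET livers Plin2 was 0.36 ± 0.13 higher on HFD (adjusted p = 0.369), and it was the 1 member whose ranges on the 2 diets did not overlap there (13.6% of all genes). In KO livers 3 members had ranges apart, Plin2, G0s2 and Pnpla3 (18.9% of all genes). In KO livers the differences were 1.18 ± 0.40 for Cidea (adjusted p = 0.279), 1.35 ± 0.57 for Cidec (adjusted p = 0.404), 0.76 ± 0.30 for G0s2 (adjusted p = 0.375) and 1.28 ± 0.47 for Pnpla3 (adjusted p = 0.325). The Cidea and Cidec values of KO liver I1 on chow, 8.93 and 8.99, lay within the HFD range, whereas those of H1 and H2 lay below it. Without I1 the diet difference of Cidea was 1.69 and passed (adjusted p = 0.0488), and that of Cidec did not. HET mice were a mean of 4.53 weeks older on HFD than on chow, and KO mice 3.6 weeks younger, so diet and age cannot be told apart in either genotype.

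The interaction of genotype and diet gave 0 called members, where 0.0361% of all genes were called, and 1 member, Plin4, at an unadjusted p under 0.05 with limma, as did 9.86% of all genes. For Cidea the interaction was 1.14 ± 0.56 (adjusted p = 0.538) and for Cidec 1.24 ± 0.81 (adjusted p = 0.657). The 95% intervals, -0.08 to 2.36 and -0.51 to 2.99, cover both no difference and a KO minus HET difference more than 2 larger on HFD. For Plin2 the interaction was -0.18 ± 0.19 (adjusted p = 0.796).

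Ordered by mean, the 5 groups fell in the same sequence for Cidea, Cidec and Plin2: WT on chow, HET on chow, HET on HFD, KO on chow and KO on HFD. For Cidea and Cidec only the step from HET on HFD to KO on chow had ranges that did not overlap. Plin2 differed from them in having 3 steps with ranges apart, HET chow to HET HFD, HET HFD to KO chow, and KO chow to KO HFD. Of all genes, 13.6% were apart between the diets in HET livers and 18.9% in KO livers. Neither diet difference of Plin2 was called (adjusted p = 0.369 and 0.689, limma). For the step from HET on HFD to KO on chow the share of all genes was not counted. Plin4 was ordered otherwise, with HET on HFD lowest at 3.75 ± 0.75 (SD, n = 3) and KO on HFD highest at 6.17 ± 0.64 (SD, n = 3), and every pair of neighbouring groups overlapped. The lowest group was HET on chow for Plin3 and Pnpla2 and WT for Plin5, G0s2, Pnpla3 and Hilpda. The highest was KO on HFD for all 10 genes but Plin3, whose highest group was KO on chow. For every gene but Plin2 the range of the highest group overlapped that of the next group.

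Livers of the same group also differed among themselves. With each gene's group mean taken off, the deviations of Cidea and Cidec over the 14 arrays correlated at r = 0.80, those of Plin4 and Pnpla2 at 0.78, those of Cidea and Plin4 at 0.70 and those of Cidea and Plin5 at 0.67. Plin2 deviated otherwise, with r = -0.10 against Cidea and -0.45 against Cidec. These coefficients describe 14 points that share array, RNA sample and scaling, and liver I1 with its high Cidea, Cidec and Plin4 values weighs on them. The SD of Plin2 within a KO group was 0.08, against 0.95 and 0.51 for Cidea and 1.17 and 0.53 for Cidec in KO livers on chow and on HFD.

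**Figure D3:**
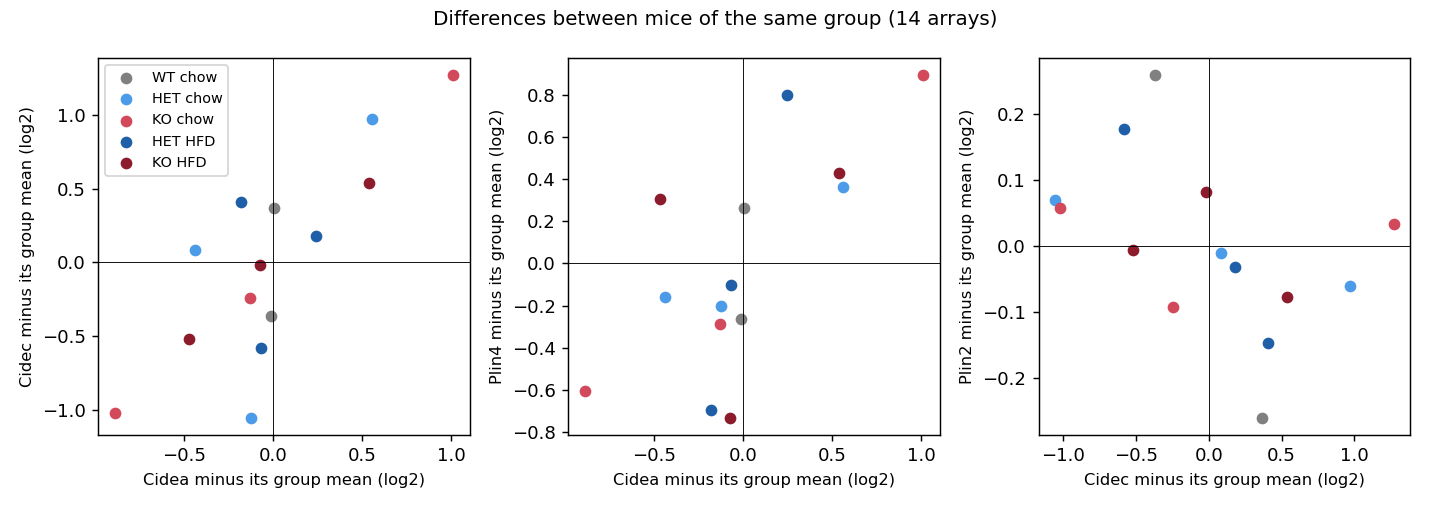
Deviation of each liver from its group mean on the log2 scale, for Cidec against Cidea (left), Plin4 against Cidea (middle) and Plin2 against Cidec (right). Points are the 14 livers, coloured by group. The left and middle plots rise, with r = 0.80 and 0.70, and the right one falls, with r = -0.45.

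The genes whose levels over the 14 arrays were most like those of Cidea were Anxa13 (r = 0.989), Ubd (0.987), Ly6d (0.986), Lgals1 (0.980) and Cidec (0.979). For Cidec they were Gas6 (0.983), Cidea (0.979), Lgals1 (0.975), Mogat1 (0.970) and Anxa13 (0.969). These lead among genes other than predicted genes, clones, small RNAs and receptor segments, and the gap between KO and other livers carries each coefficient. Anxa13 encodes an annexin, Ubd a ubiquitin-like modifier, Ly6d a surface protein, Lgals1 the lectin galectin 1 and Gas6 a ligand of receptor tyrosine kinases. Over both diets Ly6d was 5.23 higher in KO than in HET livers (adjusted p = 3.81e-08), Ubd 4.36 (adjusted p = 4.15e-07), Anxa13 4.19 (adjusted p = 2.43e-07), Lgals1 2.76 (adjusted p = 1.35e-06) and Gas6 1.14 (adjusted p = 1.48e-04), all with limma. After the group means were taken off, Gas6 kept the highest coefficient with Cidec, 0.94, and Ly6d dropped to 0.50 with Cidea.

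The upstream sequences of the CIDE and perilipin genes that rose on both diets show what lies before their start sites. RefSeq (GRCm38.p6) gave windows for 9 of the 10 members, 12 windows in all, and the member without one was Cidea. For Cidec the 250 bases before the start of 1 of its 2 windows, chr6:113435761-113436010 on the minus strand, are printed. For Plin2 the 92 bases of its window that lie outside the annotated gene, chr4:86670218-86670309 on the minus strand, are printed. The start site of this window lies inside the annotated gene, and the other 158 of the 250 bases before it are left out. They are shown because these genes were higher in all 6 KO livers and because nuclear receptors such as Pparg act through the hexamer AGGTCA. Capitals mark that hexamer, here on the opposite strand, and the Cidec sequence has no match to any motif searched.
Cidec: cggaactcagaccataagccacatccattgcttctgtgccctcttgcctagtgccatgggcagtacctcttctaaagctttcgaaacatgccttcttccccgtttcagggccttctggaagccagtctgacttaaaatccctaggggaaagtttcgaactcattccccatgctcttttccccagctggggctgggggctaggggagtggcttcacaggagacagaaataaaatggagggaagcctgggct
Plin2: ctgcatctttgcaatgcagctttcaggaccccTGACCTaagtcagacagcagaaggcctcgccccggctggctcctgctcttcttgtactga

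Motifs were searched on both strands of the 250 bases before each start. The hexamer AGGTCA was found for Plin2, 213 to 218 bases before the start site used, and for Plin5, 165 to 170 bases before it. Of all 32851 windows 14.0% hold the hexamer. Both start sites lie inside the annotated genes, so these distances do not run from the outer edge of the gene. The direct repeat of that hexamer with 1 base between (DR1), which contains the hexamer, was found in no member window and in 0.0335% of all windows. The E-box CACGTG (6.02% of all windows) and the sterol element TCACNCCAC (1.05%) were found in no member window. The hypoxia element core ACGTG, which the E-box contains, was found for Hilpda (16.6% of all windows). TATAA was found for Plin4, Plin5 and Hilpda (22.8% of all windows). These matches describe letters in a short window and say nothing of binding.

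Around these members, a list of 34 other droplet and lipolysis genes was read, of which 31 were measured. In KO against HET livers on chow 0 of the 31 rose and 1 fell, on HFD 3 rose and 4 fell, and over both diets 4 rose and 3 fell, where 1.92%, 7.56% and 9.43% of all genes were called, with medians of 0.06, 0.08 and 0.05. Arrays were also centred on their medians over the genes tested, not over all probe sets. This lowered the KO minus HET difference of every gene by 0.12 on chow, 0.22 on HFD and 0.17 over both diets. With centred arrays 3 rose and 8 fell over both diets. At an unadjusted p under 0.05 there were 6, 11 and 16, against 13.4%, 20.5% and 22.2% of all genes. The HFD count of 7 was 0 without C4, 2 without B2, C2 or C3, 2 with only the groups compared and 4 without F2, with age as a linear term or with array-name letters as a random block. The chow count of 1 was 0 without F1, F2, H2 or I1 and 2 or 3 without G1, N1, P1 or B2. Those that passed over both diets included Fitm1 and Fitm2, which help triglyceride leave the endoplasmic reticulum for the droplet. Fitm1 differed by 1.61 ± 0.38 (adjusted p = 0.0172, limma) and Fitm2 by 0.53 ± 0.15 (adjusted p = 0.0389). The carboxylesterase Ces1g rose by 1.59 ± 0.32 (adjusted p = 0.00666) while its relative Ces1f fell by 0.31 ± 0.08 (adjusted p = 0.0242), and close relatives can share signal on arrays. The droplet dehydrogenase Hsd17b11 rose by 0.58 ± 0.13 (adjusted p = 0.0121), whereas the droplet hydrolase Ldah fell by 0.53 ± 0.12 (adjusted p = 0.0162) and the lipid transfer protein Vps13c fell by 0.58 ± 0.09 (adjusted p = 9.06e-04). The Pnpla2 activator Abhd5, the lipases Lipe and Mgll, and Dgat1, Dgat2 and Mttp, which make triglyceride or load it onto lipoproteins, were not called. Calls of Ces1f and Fitm2 were kept in 8 and 4 of 14 single-array omissions (adjusted p up to 0.0593 and 0.0943). Without F1 and F2 together those of Fitm1 (adjusted p = 0.149), Fitm2 (0.304), Ces1g (0.0873), Hsd17b11 (0.0907) and Ldah (0.0713) were lost, and the Hsd17b11 difference was 0.33. With age as a linear term, limited as described above, of the 7 only Hsd17b11 was called, at 2.67 (adjusted p = 0.044).

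Of 16 regulators of lipid genes, 0 rose and 1 fell on chow, 1 rose and 1 fell on HFD, and 1 rose and 3 fell over both diets in KO against HET livers, with medians of -0.13, -0.22 and -0.22. These are read against the same 1.92%, 7.56% and 9.43% of all genes. With centred arrays 0 rose and 1 fell on chow, 1 rose and 5 fell on HFD, and 1 rose and 11 fell over both diets. The count over both diets, 4, was 2 without H2, I1, B1 or C4 and 1 without F1 and F2 together, the chow count, 1, was 2 without P1 or H1 and 0 without F1 and F2 together, and with age as a linear term 0 were called in any of the 3. The HFD count, 2, was 4 with a trended and robust prior, array weights or dim genes left out. The gene that rose was Pparg, the nuclear receptor that drives fat storage in adipocytes. It read 6.16 and 7.30 in WT, 6.69, 6.07 and 6.83 in HET and 7.53, 7.63 and 7.57 in KO livers on chow. Under HFD feeding the values were 6.64, 6.62 and 4.65 in HET and 8.27, 8.21 and 8.07 in KO livers. All 6 KO livers were above all others. Its KO minus HET difference was 2.21 ± 0.44 on HFD (adjusted p = 0.00852, limma), 1.05 ± 0.44 on chow (adjusted p = 0.314) and 1.63 ± 0.31 over both diets (adjusted p = 0.00506). Without HET liver B2, the lowest, the last was 1.30 and still passed (adjusted p = 0.00135), and without the chow HET livers F1 and F2 together it was 1.48 and did not pass (adjusted p = 0.0527). With age as a linear term it was 4.09 and did not pass (adjusted p = 0.447). Over both diets Srebf1, the regulator of fatty acid synthesis, fell by 0.76 ± 0.19 (adjusted p = 0.0215), Mlxipl, the carbohydrate response factor, fell by 0.38 ± 0.09 (adjusted p = 0.0123). The call of the hepatocyte factor Onecut1 over both diets (-1.03 ± 0.28, adjusted p = 0.0389) averaged differences of opposite sign. On chow Onecut1 fell by 2.78 ± 0.40 (adjusted p = 0.0027), from a mean of 8.83 in HET to 6.04 in KO livers. On HFD its means were 7.26 in HET and 7.99 in KO livers, a difference of 0.73 ± 0.40 that did not pass (adjusted p = 0.333), and the interaction, 3.52 ± 0.57, did not pass either (adjusted p = 0.0544). Calls of Srebf1 and Onecut1 over both diets were kept in 9 and 3 of 14 single-array omissions (adjusted p up to 0.0557 and 0.0968). Without F1 and F2 together those of Srebf1 (adjusted p = 0.0745), Mlxipl (0.0793) and Onecut1 (0.317) were lost.

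A list of 10 genes that Pparg is known to induce, of which 9 were measured, was drawn up with these results in view. In KO against HET livers 3 of the 9 rose on chow, 8 on HFD and 6 over both diets, and 0 fell, with medians of 0.32, 1.53 and 0.88, beside 1.92%, 7.56% and 9.43% of all genes called. The HFD count of 8 was 4 without C2 and 5 without A2, B1, B2, C3, C4 or H2. With centred arrays 3, 6 and 4 rose. Over both diets the fatty acid transporter Cd36 rose by 1.92 ± 0.10 (adjusted p = 2.99e-07, limma), Mogat1, which acylates monoacylglycerol, by 2.69 ± 0.23 (adjusted p = 1.47e-05), and the glycerol channel Aqp7 by 2.67 ± 0.24 (adjusted p = 2.04e-05). Lipoprotein lipase, Lpl, rose by 1.39 ± 0.30 (adjusted p = 0.00984), and Fitm2, which the droplet list also holds, was called too. The sixth was the lipoprotein receptor Vldlr (0.53 ± 0.15, adjusted p = 0.0425), whose differences had opposite signs on the 2 diets. On chow its means were 4.38 in HET and 4.12 in KO livers, a difference of -0.26 ± 0.21 (adjusted p = 0.663), and on HFD it rose by 1.32 ± 0.21 (adjusted p = 0.00238), from 3.47 to 4.78. The interaction of Vldlr, 1.58 ± 0.30, did not pass (adjusted p = 0.0932). The Vldlr call over both diets was kept in 4 of 14 single-array omissions (adjusted p up to 0.0993). With arrays centred on their medians both the Vldlr and the Fitm2 differences missed the threshold (adjusted p = 0.084 and 0.0907). With age as a linear term 1 of the 9 was called on chow, 3 on HFD and 0 over both diets. The Lpl difference over both diets was then -3.16 (adjusted p = 0.41). On HFD 5 were called with array-name letters as a random block, and on chow 1 without F1 and F2.

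**Figure D4:**
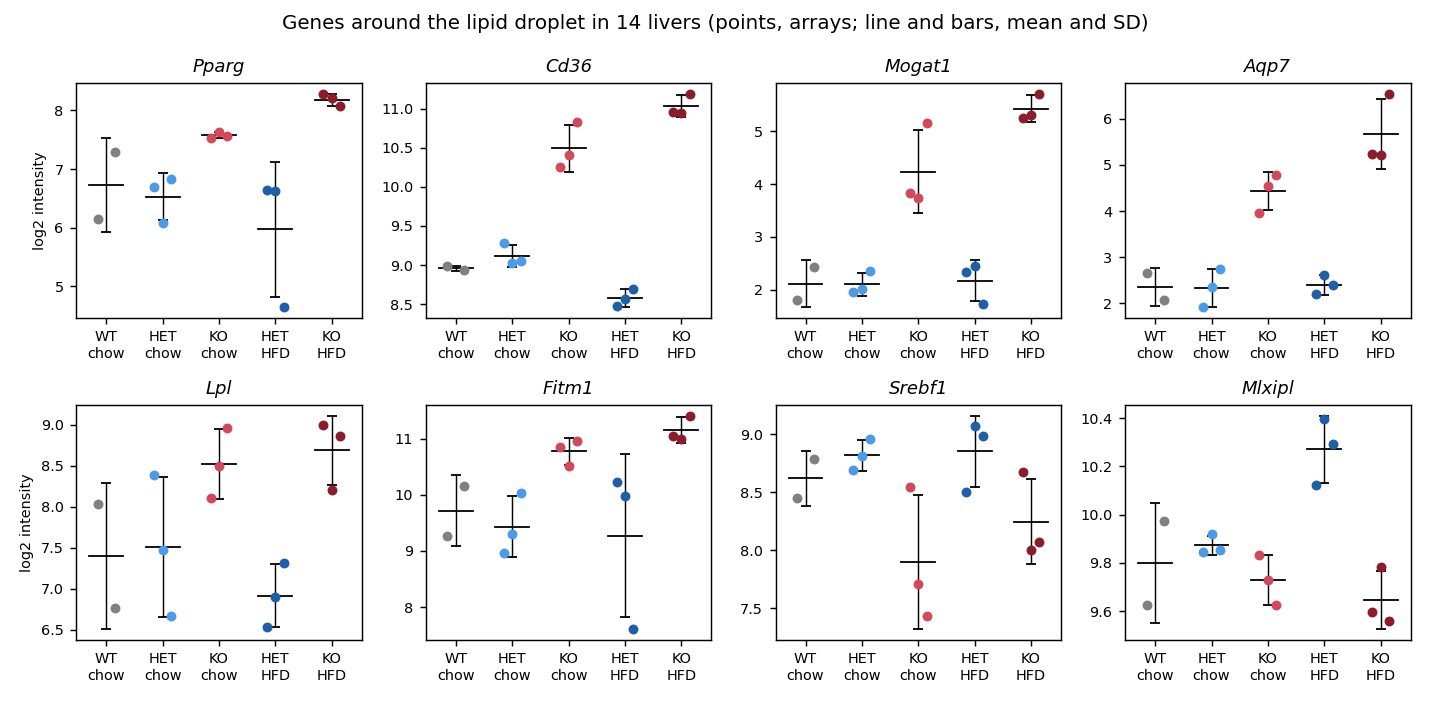
Log2 intensity of Pparg, 5 genes of lipid uptake, storage or transport, and the regulators Srebf1 and Mlxipl (vertical axes, each with its own range) in the 5 groups (horizontal axes). Points are single livers, lines the group means and bars the SD. Pparg, Cd36, Mogat1, Aqp7 and Fitm1 show all 6 KO livers above the other 8, and the low HET HFD point of Pparg and Fitm1 is liver B2.

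Markers of other cells were read beside these results, because Cidea, Cidec, Plin4 and Pparg are best known from fat tissue. Of 5 white adipocyte markers 4 were measured, and their mean level per liver lay between 1.58 and 1.80 in all 14 livers, with 0 called and 0 at an unadjusted p under 0.05 in KO against HET with limma on chow, on HFD or over both diets. Adipoq (adiponectin) and Lep (leptin) were below the array median in all 14 livers, with highest values of 1.86 and 1.34, and Retn and Plin1 were below it in 13 and 7. Of the 4 brown fat markers, Ucp1 and Dio2 were below it in all 14 livers, with highest values of 1.82 and 1.59. The other brown fat markers were above it in all 14, Elovl3 at 9.40 to 12.19 and Cox7a1 at 3.02 to 4.15. Of the 4, 0 were called, with 0, 1 and 1 at an unadjusted p under 0.05, and the 1 was Elovl3, lower in KO livers (-1.55 ± 0.52 on HFD, adjusted p = 0.0949). Hepatocyte markers had mean levels of 12.5 to 12.6 on chow and in HET livers on HFD and of 12.3 in KO livers on HFD, where 3 of the 8 fell (Apoa1, Apob and Hnf4a, of which Apob is also in the droplet list). On chow 0 fell, with 1 at an unadjusted p under 0.05, and over both diets 1 fell, Tat. Hepatocyte markers were thus bright in all 14 livers, as the liver label says.

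Of 12 macrophage markers, 3 rose and 1 fell in KO against HET livers on chow, 4 rose and 1 fell on HFD, and 5 rose and 1 fell over both diets. These and the counts below are read against 1.92%, 7.56% and 9.43% of all genes called. Their mean level per liver lay between 5.15 and 5.89 in WT and HET livers and between 5.77 and 6.69 in KO livers. The chemokine receptor Cx3cr1 rose by 2.61 ± 0.17 on chow (adjusted p = 3.25e-06, limma) and 2.87 ± 0.17 on HFD (adjusted p = 1.26e-06), and the monocyte marker Ly6c2 by 2.63 ± 0.36 (adjusted p = 0.00185) and 2.65 ± 0.36 (adjusted p = 8.2e-04). Trem2, which lipid-laden macrophages express, rose by 1.42 ± 0.23 on chow (adjusted p = 0.00602) and 1.85 ± 0.23 on HFD (adjusted p = 4.07e-04). Gpnmb, which they also express, rose by 2.84 ± 0.57 on HFD (adjusted p = 0.00851) and differed by 1.73 ± 0.57 on chow without passing (adjusted p = 0.18). The resident macrophage marker Timd4 fell by 1.52 ± 0.22 on chow (adjusted p = 0.00281) and 1.39 ± 0.22 on HFD (adjusted p = 0.0023). Clec4f, Cd5l and Marco, which resident macrophages also express, were not called. Their HET and KO means on chow were 8.29 and 8.48, 7.82 and 7.74, and 6.43 and 6.10. On HFD these were 8.74 and 8.74, 8.12 and 8.43, and 6.65 and 6.61. The fifth that rose over both diets was Ccr2 (1.06 ± 0.24, adjusted p = 0.0139). Of 9 stellate cell markers 0 rose and 1 fell on chow, 2 rose and 1 fell on HFD, and 3 rose and 2 fell over both diets. Of 6 endothelial markers 0, 0 and 0 rose and 0, 1 and 0 fell, with 1, 3 and 3 at an unadjusted p under 0.05. Of 4 muscle markers 0 were called, with 1, 0 and 1 at an unadjusted p under 0.05. The part of these cells in the values of the members was not tested.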

How the data were processed

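The authors deposited log2 intensities per probe set of Affymetrix whole-transcript arrays, made from 400 ng of liver RNA per array. Per the submitters' processing notes they used RMA and limma, and versions, array build and any batch adjustment are not given in the sources used here. Of 41345 probe sets, 23521 carried 1 symbol, 1814 several and 16010 none. Those with 1 symbol gave 22180 genes, the probe set with the highest mean over 14 arrays being kept for each, with no filter on level and no further scaling.

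Group means were estimated in a single fit of all 14 arrays with limma 3.58.1 in R 4.3.3 (9 residual and 3.83 prior degrees of freedom), and p-values were adjusted by Benjamini and Hochberg over all genes within each of 8 contrasts. Groups came from the labels. P-values set differences of group means against the spread between mice of the same group. Anything shared by all mice of a group, such as age in each KO group, is not part of that spread. The procedure was run on simulated arrays with independent normal noise and known shifts in KO livers on chow. These held no effect of age or of array-name letters, so the run does not test for those. Members, gene lists, tests and alternatives were chosen with earlier results of these data known. Named are all members, up to 6 called genes per list over both diets, and the 5 genes most correlated with Cidea and with Cidec; others, such as Abhd5, Adipoq and the cell type markers, were named after their values were seen. The lists hold other droplet genes, regulators, Pparg-induced genes and markers of hepatocytes, white and brown fat cells, macrophages, stellate cells, endothelium and muscle.

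Alternatives were a trended and robust prior, array weights, only the groups compared, a filter on dim genes (log2 of 4 on 2 arrays), averaged probe sets per gene, median-centred arrays, array-name letters as a random block, age as a linear term, WT and HET on chow as 1 group, and leaving out each array. Median centring used the medians over the genes tested, not those over all probe sets. Leaving out F1 and F2 together was chosen after seeing the data, and it left P1 as the only HET liver on chow.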

Additional observations from a re-analysis of the deposited data

How the results depend on the processing

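Over 24 alternative settings the 10 members gave 1872 differences, of which 1835 kept their side of the threshold, 32 lost a call, 1 gained one and 4 turned sign with a call lost. Most of the 1872 were not called in the reported fit and stayed so, and the lost calls fall on far fewer differences. A further count of 88, among those that kept their side, changed sign without passing anywhere. Of the lost calls, 19 belonged to Plin2. The number of members called, KO against WT on chow, was 1 with only the groups compared, against 3. With age as a linear term it was 0 for KO against HET on chow, 0 against WT, 2 on HFD (Cidea 7.85, adjusted p = 0.0056, and Cidec 7.44, adjusted p = 0.0249) and 0 over both diets. Under it the Plin2 difference was -0.77 on chow, -0.74 against WT, -0.048 on HFD and -0.41 over both diets. Also under it, over both diets, Ces1f stood at 0.45, Mlxipl at 0.20, Srebf1 at 0.42, Lpl at -3.16 and Vldlr at -0.064. The age slope came only from age differences within WT and HET groups, so these values cannot say whether a call depends on age. Leaving out single arrays, HFD against chow in KO livers called 0 to 1 members. Without F1 and F2 together, KO against HET on chow called 1 member, Cidea. Median centring over the genes tested lowered all KO minus HET differences by 0.12 on chow, 0.22 on HFD and 0.17 over both diets, and KO minus WT by 0.13. The medians over all probe sets went the other way on HFD, at 2.23, 2.21 and 2.22 in KO and 2.28, 2.30 and 2.26 in HET livers. Before centring, the median difference over all genes was -0.009 on chow, -0.02 on HFD and -0.02 over both diets. Centring made these more negative. With centring Plin2 missed the threshold on HFD (0.31, adjusted p = 0.109) and against WT (0.58, adjusted p = 0.0784). The filter on dim genes kept 10494 genes and 9 members. Of the context lists, the droplet genes called over both diets numbered 2 to 11 (7 in the reported fit), the regulators 0 to 12 (4) and the Pparg-induced genes 0 to 6 (6). The causes of these changes were not tested.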

Other observations

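Chow controls differed among themselves along the letters of the array names, a pattern picked after the values were seen and not tested. WT liver N1 and HET liver P1 read higher than G1, F1 and F2 for Cidec (4.22 and 4.87, against 2.85 to 3.98), Plin4 (4.98 and 5.10, against 4.45 to 4.57), Fitm1 (10.17 and 10.03, against 8.97 to 9.30) and Pparg (7.30 and 6.83, against 6.07 to 6.69), and lower for Lpl (6.77 and 6.67, against 7.47 to 8.38). N1 and P1 were 24.6 and 24 weeks old, and the other 3 were 26.4 to 27 weeks old. HET liver B2 on HFD had the lowest value of the 14 for Plin4 (3.06), Fitm1 (7.61), Ces1g (8.21) and Pparg (4.65), whereas its Plin2 value, 9.79, lay among the other HET livers.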
